A study of Mus musculus with 4 samples.

Results

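The 10 genes described here encode the enzymes that make serine from glycolysis and pass its carbon through folate in the cytosol and in mitochondria. They were Phgdh, Psat1 and Psph of serine synthesis, Shmt1, Mthfd1 and Aldh1l1 of the cytosolic folate steps, and Shmt2, Mthfd2, Mthfd1l and Aldh1l2 of the mitochondrial steps. Each was taken by an exact match of its symbol, and all 10 were found among the 24391 genes of the deposited count files. The 4 samples were lung tumours of mice with a lox-stop-lox mutant allele, K-Ras LSL-G12D, with 2 samples from this genotype (K-Ras) and 2 from mice that also carried floxed Mll4 alleles, Mll4 fl/fl (K-Ras Mll4-/-). Both groups therefore carried the K-Ras allele, and they were compared to ask how gene expression differed with the labelled loss of Mll4, a histone H3 lysine methyltransferase now named Kmt2d. Tumours of both groups were dissociated and depleted of CD45-bearing leukocytes before RNA extraction. How Cre was delivered, the age of the mice and whether a sample was 1 tumour or 1 mouse are not given in the sources used here, so p-values measure the spread between these samples, which may be technical.

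Serine is made from the glycolytic intermediate 3-phosphoglycerate by oxidation (PHGDH), transamination (PSAT1) and removal of phosphate (PSPH). Serine hydroxymethyltransferases then move a carbon of serine onto tetrahydrofolate, giving glycine, and folate enzymes oxidise that carbon to formate in mitochondria, from where it is used in the cytosol for purines, thymidylate and methionine. The mitochondrial dehydrogenase MTHFD2 is known as an enzyme of embryonic and proliferating cells and is often abundant in tumours, and PHGDH is known for its part in some lung cancers.

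The start of the gene is shown for the 3 enzymes with the largest differences between the groups and for Phgdh, the entry enzyme of serine synthesis, because shared promoter letters are a property that the choice of genes did not use. The sequences are the 250 bases before the RefSeq start, in GRCm38.p6, from the reverse strand in each case. Mthfd2 lies at chr6:83317605-83317854, Psat1 at chr19:15925060-15925309, Shmt2 at chr10:127522445-127522694 and Phgdh at chr3:98339970-98340219. Capitals mark CCAAT, read on either strand, and in Phgdh also a match to the antioxidant response element core.
Mthfd2: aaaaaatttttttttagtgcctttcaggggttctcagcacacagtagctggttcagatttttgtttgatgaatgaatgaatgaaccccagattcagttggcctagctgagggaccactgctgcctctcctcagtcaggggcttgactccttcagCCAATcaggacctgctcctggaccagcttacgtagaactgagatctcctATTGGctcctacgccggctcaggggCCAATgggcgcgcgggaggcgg
Psat1: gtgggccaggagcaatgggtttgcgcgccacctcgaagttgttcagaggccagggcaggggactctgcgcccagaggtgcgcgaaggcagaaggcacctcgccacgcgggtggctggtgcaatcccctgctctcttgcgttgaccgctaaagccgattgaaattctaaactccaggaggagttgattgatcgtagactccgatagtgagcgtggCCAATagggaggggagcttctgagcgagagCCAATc
Shmt2: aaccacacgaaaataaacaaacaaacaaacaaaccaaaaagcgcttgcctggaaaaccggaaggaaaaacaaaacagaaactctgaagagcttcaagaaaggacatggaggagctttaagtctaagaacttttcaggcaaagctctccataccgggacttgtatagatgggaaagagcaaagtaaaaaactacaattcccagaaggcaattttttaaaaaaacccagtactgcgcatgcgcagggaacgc
Phgdh: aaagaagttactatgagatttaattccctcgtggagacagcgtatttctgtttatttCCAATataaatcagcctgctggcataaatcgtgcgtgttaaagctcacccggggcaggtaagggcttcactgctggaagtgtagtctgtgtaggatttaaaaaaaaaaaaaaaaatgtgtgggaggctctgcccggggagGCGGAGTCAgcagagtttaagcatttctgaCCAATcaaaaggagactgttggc

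The motifs TGATGNAA, CACGTG and TGACNNNGC were searched on both strands of promoter windows of 300 bases, found for 9 of the 10 enzymes in 10 entries, since Psat1 has a pair of starts. TGATGNAA, the composite element bound by ATF4 with C/EBP factors, was in 0 of the 10 entries and in 3.97% of all 32851 promoters. CACGTG, the E-box bound by MYC, was likewise in 0 entries and in 7.15% of all promoters. TGACNNNGC, the antioxidant response element core bound by NRF2, was in 2 entries, those of Phgdh and Psph, and in 12.4% of all promoters. CCAAT, searched after the sequences had been read, was in 7 of the 10 entries against 37.4% of all promoters. As it was picked from these same letters, that share is a description only. There were 3 copies before the start of Mthfd2, and 2 before Phgdh and before the outer start of Psat1. Shmt2 and the inner start of Psat1 had 0. None of these matches overlapped a match to another of the motifs in the sequences shown. A match is a description of letters in this window only.

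The counts of 1 enzyme need care. Phgdh has 7 processed pseudogenes that match over 1000 bases of its transcript at 95% identity or more, and the closest, Gm7901, matched at 98.8% in the GENCODE M21 annotation. A stretch of 60 bases of the Phgdh coding sequence, shown because a read that lies within it has no unique origin, has the same letters in both transcripts.
Phgdh and Gm7901: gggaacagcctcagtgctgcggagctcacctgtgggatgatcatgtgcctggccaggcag
Of all 50-base windows of the Phgdh transcript, 63.1% occur letter for letter in a transcript of another gene, and 37.3% of 100-base windows do. Reads with more than 1 alignment were tallied outside the genes, so the count of Phgdh and its level per length are uncertain. The same share of 50-base windows was 0% for Mthfd1, Mthfd2 and Mthfd1l, 1.21% for Psat1 and 1.83% for Shmt2. It was 16.8% for Aldh1l2, where 14.1% of the exon bases overlap the opposite-strand gene D10Wsu102e, and between 4.81% and 8.34% for Psph, Shmt1 and Aldh1l1, which also share exon bases with an opposite-strand neighbour. The strand setting of the counting is not given in the sources used here, so reads from those overlaps cannot be told apart.

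Reads assigned to genes numbered 26683033 to 36677987 per sample, and each of the 10 enzymes had between 231 and 2737 reads in every sample. Kmt2d, the targeted gene, was at 395 and 526 CPM (reads scaled to library size with the TMM method) in K-Ras and 367 and 317 CPM in K-Ras Mll4-/- samples, and a total over the gene cannot show whether a few exons were lost. The groups did not overlap, and the edgeR quasi-likelihood test made no call (log2 fold change -0.43, SE 0.21, adjusted p = 0.302), so the deletion is taken from the labels. Epithelial markers were present in all samples, with a summed level of Epcam, Cdh1, Krt8, Krt18 and Nkx2-1 of 817 and 1339 CPM in K-Ras and 2806 and 2860 CPM in K-Ras Mll4-/- samples. The 6 endothelial markers summed to 6309 and 6126 CPM in K-Ras and 3830 and 3075 CPM in K-Ras Mll4-/- samples, and the 6 fibroblast markers to 2464 and 1121 against 837 and 850.1 CPM. Ptprc, the gene of CD45, was at 143 to 274 CPM in all 4 samples after depletion, with overlapping groups. Of the other marker lists, alveolar type 2 genes were abundant in every sample, and the 5 red blood cell genes were uneven, with Alas2 at 7.08 to 31.4 CPM, Hba-a2 at 0 to 6 reads and Hba-a1, Hbb-bs and Hbb-bt at 0 reads in all 4. Globin genes have close copies, whose reads can align to more than 1 place, so these zeros do not show absence. The 5 ciliated markers stood apart in K-Ras replicate 2, at 572 CPM against 51.4 to 94.2 CPM in the other samples, as did the 5 club markers, at 3611 CPM against 633 to 793 CPM. These are bulk samples, in which fewer cells of a type and less RNA per cell cannot be told apart.

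In K-Ras Mll4-/- tumours, 3 enzymes stood out as higher: Mthfd2 at 4.44 times, Psat1 at 3.46 times and Shmt2 at 2.00 times the K-Ras level. The cytosolic enzymes Shmt1 and Mthfd1 had overlapping groups. All 10 log2 fold changes (K-Ras Mll4-/- minus K-Ras) were positive with the main scaling, but that of Mthfd1 turned negative under the 3 other scalings tried (total counts, upper quartile, relative log expression), which left 9. None of the 10 was called by the edgeR quasi-likelihood test at an adjusted p under 0.05, a threshold that 0.0375% of the 16001 genes tested passed. At an unadjusted p under 0.05 by the same test, 3 of the 10 (Psat1, Shmt2 and Mthfd2) were higher against 11.4% of all genes, and 0 were lower against 10.4%. Both K-Ras Mll4-/- samples were above both K-Ras samples for 7 of the 10, against 29.9% of all genes, and below for 0, against 28.5%. DESeq2 called 3 of the 10 higher against 5.02% of all genes, and 0 lower against 4.98%. The median log2 fold change of the 10 was 0.49, and that of all genes tested was -0.01.

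**Figure D1:**
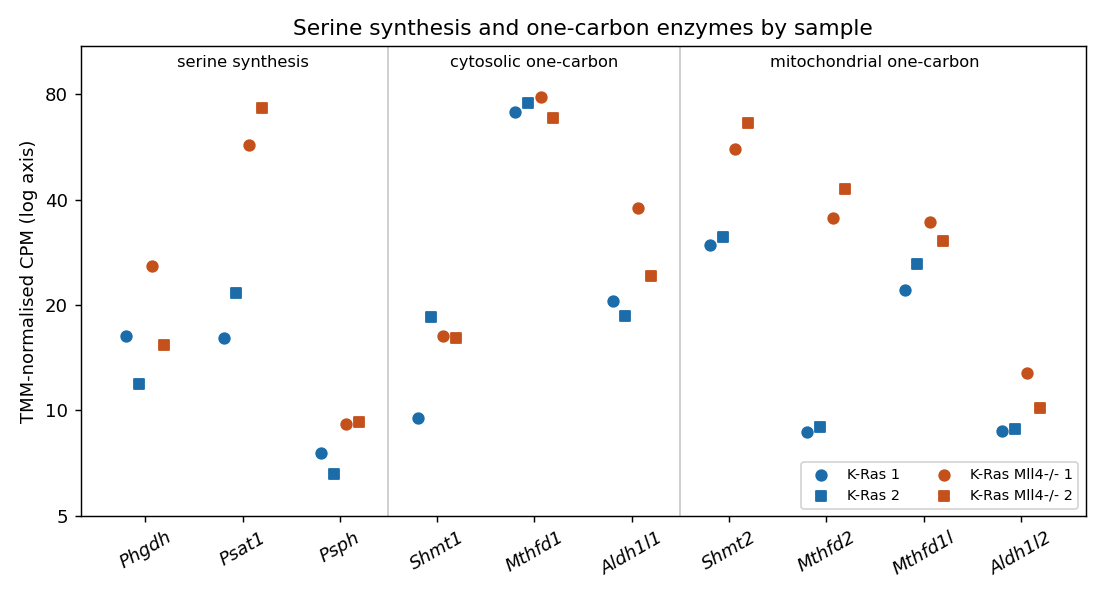
Expression of the 10 enzymes in TMM-normalised CPM on a log axis, with 1 point per sample (blue K-Ras, orange K-Ras Mll4-/-; circles replicate 1, squares replicate 2). The groups are farthest apart for Mthfd2 (8.70 and 8.97 against 35.6 and 42.8 CPM) and Psat1, while the points of Mthfd1 mix.

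Of the serine synthesis enzymes, Psat1, the aminotransferase, differed most. It was at 16.1 and 21.7 CPM in K-Ras and 57.4 and 73.3 CPM in K-Ras Mll4-/- samples. Each K-Ras Mll4-/- sample was far above both K-Ras samples, and the means were 18.9 ± 3.99 and 65.3 ± 11.2 CPM (SD, n = 2 each). The log2 fold change of Psat1 was 1.79 (SE 0.23, edgeR quasi-likelihood adjusted p = 0.128), and DESeq2 called it (adjusted p = 8.59e-08). Phgdh, the dehydrogenase that commits carbon to serine, was at 16.4 and 11.9 CPM in K-Ras and 25.9 and 15.4 CPM in K-Ras Mll4-/- samples. Its groups overlapped, since K-Ras Mll4-/- replicate 2 was below K-Ras replicate 1, and the log2 fold change of 0.55 (SE 0.33, edgeR quasi-likelihood adjusted p = 0.385) was 0.13 without K-Ras Mll4-/- replicate 1 and 0.87 without K-Ras Mll4-/- replicate 2. Psph, the phosphatase of the last step, was at 7.55 and 6.59 CPM in K-Ras and 9.14 and 9.25 CPM in K-Ras Mll4-/- samples. The groups did not overlap, but the gap was small, at a log2 fold change of 0.38 (SE 0.21, edgeR quasi-likelihood adjusted p = 0.353). The 3 enzymes of 1 linear route thus had differences of 0.38 to 1.79 on the log2 scale, and the middle step had the largest.

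In the cytosol, Mthfd1, the enzyme with several activities that interconverts folate-bound carbon units, was at 71.0 and 75.7 CPM in K-Ras and 78.6 and 68.6 CPM in K-Ras Mll4-/- samples. The K-Ras values lay between those of the other group, and the log2 fold change was 0.0042 (SE 0.13, edgeR quasi-likelihood adjusted p = 0.987). Shmt1, the cytosolic serine hydroxymethyltransferase, was at 9.48 and 18.5 CPM in K-Ras and 16.3 and 16.1 CPM in K-Ras Mll4-/- samples. The K-Ras samples enclosed the other group and differed from each other more than the groups did. Its log2 fold change of 0.21 (SE 0.35, edgeR quasi-likelihood adjusted p = 0.755) turned to -0.19 without K-Ras replicate 1 and was 0.76 without K-Ras replicate 2, the sample with the high ciliated and club markers. Whether that airway content bears on Shmt1 was not tested. Aldh1l1, the cytosolic formyltetrahydrofolate dehydrogenase, which releases the carbon as carbon dioxide, was at 20.6 and 18.7 CPM in K-Ras and 37.9 and 24.2 CPM in K-Ras Mll4-/- samples. The groups did not overlap, but the K-Ras Mll4-/- samples lay farther from each other than the lower of them lay from the K-Ras samples, and the log2 fold change of 0.66 (SE 0.26, edgeR quasi-likelihood adjusted p = 0.240) was 0.31 without K-Ras Mll4-/- replicate 1 and 0.94 without K-Ras Mll4-/- replicate 2.

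In mitochondria, all 4 enzymes were higher in both K-Ras Mll4-/- samples than in both K-Ras samples, as were 29.9% of all genes. By the edgeR quasi-likelihood test, 2 of the 4, Shmt2 and Mthfd2, were higher at an unadjusted p under 0.05, against 11.4% of all genes. Mthfd2, the dehydrogenase and cyclohydrolase, was at 8.70 and 8.97 CPM in K-Ras and 35.6 and 42.8 CPM in K-Ras Mll4-/- samples. The K-Ras samples were almost alike, at 8.83 ± 0.189 CPM, against 39.2 ± 5.10 CPM in K-Ras Mll4-/- samples (SD, n = 2 each). The log2 fold change of Mthfd2 was 2.15 (SE 0.17, edgeR quasi-likelihood adjusted p = 0.0839), the 16th smallest p of the 16001 genes, and DESeq2 called it (adjusted p = 2.15e-14). Leaving out single samples kept the log2 fold change of Mthfd2 between 2.00 and 2.28. The edgeR quasi-likelihood test called it without K-Ras replicate 1 (adjusted p = 0.0356), where the lone K-Ras sample is assumed to vary like the other group. It did not without K-Ras replicate 2 (0.106), K-Ras Mll4-/- replicate 1 (0.244) or K-Ras Mll4-/- replicate 2 (0.600). Shmt2, which starts the mitochondrial route by moving carbon from serine to folate, was at 29.8 and 31.3 CPM in K-Ras and 56.0 and 66.3 CPM in K-Ras Mll4-/- samples. The gap between the groups exceeded the spread within either, and the log2 fold change was 1.00 (SE 0.15, edgeR quasi-likelihood adjusted p = 0.135), with a DESeq2 call (adjusted p = 0.000565).

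The last mitochondrial enzymes differed less. Mthfd1l, which releases formate, was at 22.1 and 26.3 CPM in K-Ras and 34.5 and 30.6 CPM in K-Ras Mll4-/- samples. The groups did not overlap, and the log2 fold change was 0.43 (SE 0.16, edgeR quasi-likelihood adjusted p = 0.232). Aldh1l2, the mitochondrial formyltetrahydrofolate dehydrogenase, was at 8.76 and 8.86 CPM in K-Ras and 12.8 and 10.1 CPM in K-Ras Mll4-/- samples. Here the lower K-Ras Mll4-/- sample was close to the K-Ras samples, and the log2 fold change of 0.38 (SE 0.22, edgeR quasi-likelihood adjusted p = 0.357) was 0.21 without K-Ras Mll4-/- replicate 1 and 0.53 without K-Ras Mll4-/- replicate 2. Mthfd2l, the near relative of Mthfd2 with the same mitochondrial activities, was at 6.51 and 5.76 CPM in K-Ras and 5.41 and 8.56 CPM in K-Ras Mll4-/- samples. Its groups overlapped, at a log2 fold change of 0.19 (SE 0.31, edgeR quasi-likelihood adjusted p = 0.749).

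**Figure D2:**
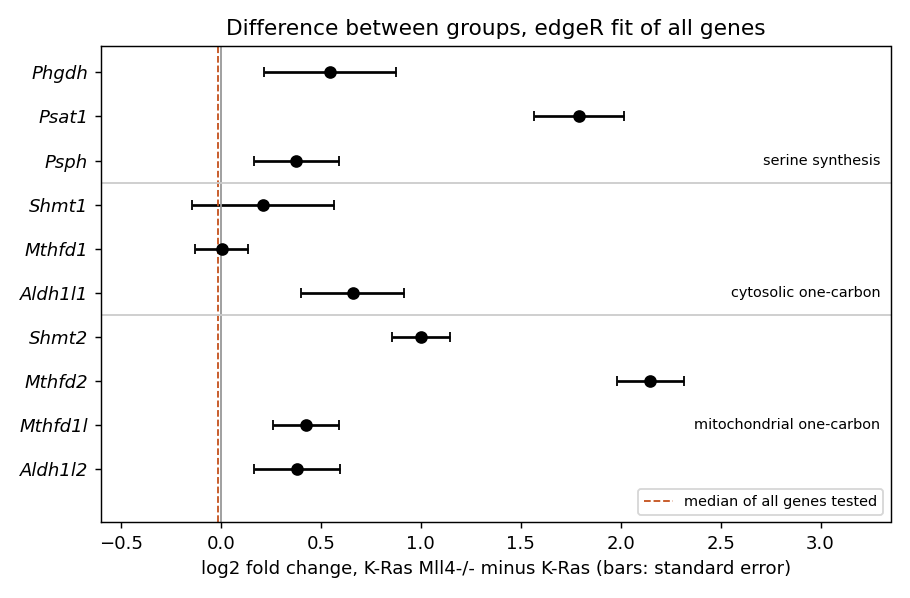
Log2 fold change of each enzyme, K-Ras Mll4-/- minus K-Ras, with its standard error, from the edgeR fit of all genes; the dashed line is the median of all genes tested (-0.01). Mthfd2 (2.15), Psat1 (1.79) and Shmt2 (1.00) stand to the right, and Mthfd1 (0.0042) sits at the line and turns negative with other scalings.

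Per kilobase of merged exons (RPKM, from GENCODE M21 lengths), Mthfd1 had the highest level of the 10 in K-Ras tumours, at 16.5 ± 0.750 RPKM, and Shmt2 followed at 9.83 ± 0.349 RPKM (SD, n = 2 each). Both stood clear of the rest. Phgdh (5.68 RPKM, an uncertain count), Mthfd1l (5.46), Psat1 (4.44), Aldh1l1 (4.34), Shmt1 (3.60) and Mthfd2 (2.53) came next, and the ranges of the 2 samples overlapped between all neighbours in that order. Psph (1.63 RPKM) and Aldh1l2 (1.17 RPKM) were lowest, each clear of its neighbours. In K-Ras Mll4-/- tumours the order began with Shmt2 at 19.7 ± 2.35 RPKM, above Mthfd1 in both samples. Mthfd1 (16.6 RPKM) and Psat1 (15.4 RPKM) overlapped, and Mthfd2 followed at 11.2 ± 1.46 RPKM, below Psat1 in both samples but overlapping Phgdh (8.30 RPKM). Phgdh, Mthfd1l (7.34 RPKM) and Aldh1l1 (6.87 RPKM) overlapped in turn. Shmt1 (4.17 RPKM), Psph (2.12 RPKM) and Aldh1l2 (1.53 RPKM) closed the order, each separated from its neighbours. Both orders depend on the length used. The longest transcript of Psat1 has 2617 bases against 4254 merged exon bases, and that of Mthfd1 has 3241 against 4442. Close ranks can therefore change with the other length.

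The mitochondrial and cytosolic forms were set side by side as log2 ratios of RPKM within each sample. The ratio of Mthfd1l plus Mthfd2 to Mthfd1, which cover the same folate steps in the mitochondrion and the cytosol, was -1.10 and -1.005 in K-Ras and 0.02 and 0.31 in K-Ras Mll4-/- samples. On a linear scale the mitochondrial sum was 0.468 and 0.498 of the cytosolic level in K-Ras samples. In K-Ras Mll4-/- samples it was 1.02 and 1.24 of that level. The sum adds enzymes of different steps. Alone, Mthfd2 (10.2 and 12.3 RPKM) and Mthfd1l (7.79 and 6.89) stayed below Mthfd1 (17.7 and 15.4) in both K-Ras Mll4-/- samples. Of these genes Mthfd2 had the largest log2 fold change, at 2.15 against 0.43 for Mthfd1l and 0.0042 for Mthfd1. The group means of the log2 ratio differed by 1.22, and the difference stayed between 1.07 and 1.36 when single samples were left out. The ratio of Shmt2 to Shmt1 was 1.97 and 1.08 in K-Ras and 2.10 and 2.36 in K-Ras Mll4-/- samples, so the mitochondrial form was the higher per length in all 4. Its group difference of 0.71 rested on K-Ras replicate 2, without which it was 0.26, and it was 1.15 without K-Ras replicate 1. The ratio of Aldh1l2 to Aldh1l1 was -1.96 and -1.81 in K-Ras and -2.30 and -1.98 in K-Ras Mll4-/- samples, so the cytosolic form was the higher per length in all 4, with a group difference of -0.26 that was -0.10 without K-Ras Mll4-/- replicate 1 and -0.41 without K-Ras Mll4-/- replicate 2. The ratios are given as a description with no test; exact permutation of 2 and 2 samples has 0.333 as its smallest two-sided p.

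**Figure D3:**
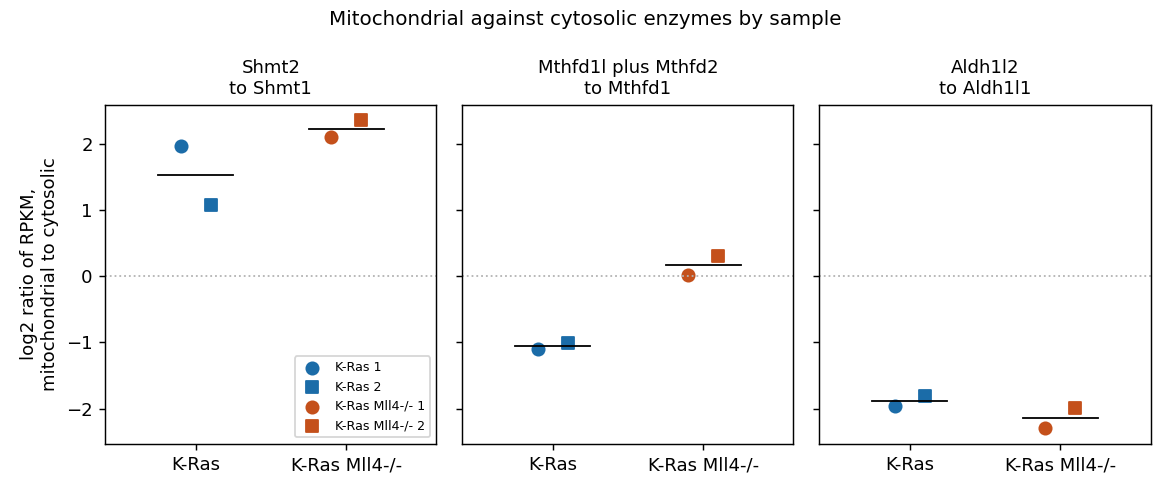
Log2 ratio of RPKM of the mitochondrial to the cytosolic enzyme for 3 steps, with 1 point per sample (blue K-Ras, orange K-Ras Mll4-/-) and a black line at each group mean; 0 is an equal level per length. The middle panel sums Mthfd1l and Mthfd2, so 0 there is not an equal level of single enzymes. That panel moves from -1.10 and -1.005 to 0.02 and 0.31, while K-Ras replicates 1 and 2 lie apart in the Shmt panel.

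The other genes of the pathway were taken from 7 lists with 54 genes, of which 48 were tested. None of the 48 was called by the edgeR quasi-likelihood test. At an unadjusted p under 0.05, 14 were higher and 7 lower, against 11.4% and 10.4% of all genes. DESeq2 called 8 higher and 2 lower, against 5.02% and 4.98% of all genes. The median log2 fold change of the 48 was 0.27. Purine synthesis, which uses formyl-folate, had the most genes on 1 side: 10 of 11 had positive log2 fold changes, 6 of them at an unadjusted p under 0.05, and the list median was 0.42. Paics was at 101 and 120 CPM in K-Ras and 191 and 245 CPM in K-Ras Mll4-/- samples (log2 fold change 0.99, SE 0.19, edgeR quasi-likelihood adjusted p = 0.147). Atic, which adds the last folate carbon to the purine ring, was at 38.8 and 35.2 against 55.8 and 63.8 CPM (log2 fold change 0.69, SE 0.14, edgeR quasi-likelihood adjusted p = 0.153). DESeq2 called both.

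The glycine cleavage system, which takes a carbon from glycine in mitochondria, had 4 tested genes. Their log2 fold changes were positive for 3 and negative for 1, with a median of 0.46. Gldc, its decarboxylase, was low in K-Ras at 0.818 and 1.94 CPM and was at 7.39 and 5.40 CPM in K-Ras Mll4-/- samples. The groups were well apart on a low level, at a log2 fold change of 2.20 (SE 0.51, edgeR quasi-likelihood adjusted p = 0.163) and a DESeq2 call (adjusted p = 0.00363). Gcsh, its carrier protein, was at 10.7 and 8.55 against 15.1 and 15.2 CPM (log2 fold change 0.66, SE 0.20, edgeR quasi-likelihood adjusted p = 0.190). Amt had overlapping groups, at 7.36 and 13.4 against 10.8 and 8.56 CPM (log2 fold change -0.10, SE 0.36). Dld had a log2 fold change of 0.26 (SE 0.20).

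Among the remaining folate enzymes, 5 of 6 tested genes had positive log2 fold changes and the median was 0.24. Tyms, the thymidylate synthase, was at 9.94 and 10.1 CPM in K-Ras and 11.65 and 13.03 CPM in K-Ras Mll4-/- samples (log2 fold change 0.30, SE 0.19, edgeR quasi-likelihood adjusted p = 0.395). Folate uptake and retention had 6 tested genes and a median of -0.17. The reduced folate carrier Slc19a1 was at 4.19 and 3.27 against 7.01 and 7.35 CPM, and the folate receptor Folr2 was at 1.34 and 1.52 against 0.381 and 0.714 CPM, so the 2 lowest p-values of that list pointed in opposite directions (edgeR quasi-likelihood adjusted p = 0.179 and 0.215).

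The methionine cycle, which supplies methyl groups, was split, with 3 of 6 tested genes positive and a median of 0.15. Ahcy, which clears S-adenosylhomocysteine, was at 9.19 and 12.1 CPM in K-Ras and 25.6 and 29.4 CPM in K-Ras Mll4-/- samples (log2 fold change 1.37, SE 0.21, edgeR quasi-likelihood adjusted p = 0.138), and DESeq2 called it. Mtr, the folate-dependent methionine synthase, was at 35.1 and 40.1 against 31.3 and 32.7 CPM (log2 fold change -0.23, SE 0.14, edgeR quasi-likelihood adjusted p = 0.380). Mat2a, which makes S-adenosylmethionine, was at 121 and 150 against 178 and 161 CPM (log2 fold change 0.33, SE 0.17, edgeR quasi-likelihood adjusted p = 0.313). Mitochondrial choline and sarcosine oxidation had 2 of 4 tested genes positive. Aldh7a1 was at 21.03 and 33.5 against 53.2 and 61.3 CPM and was called by DESeq2, while Pipox had 13 and 14 reads in K-Ras and 1 and 2 reads in K-Ras Mll4-/- samples, too few for a fold. Near-identical copies of these other genes were not examined.

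**Figure D4:**
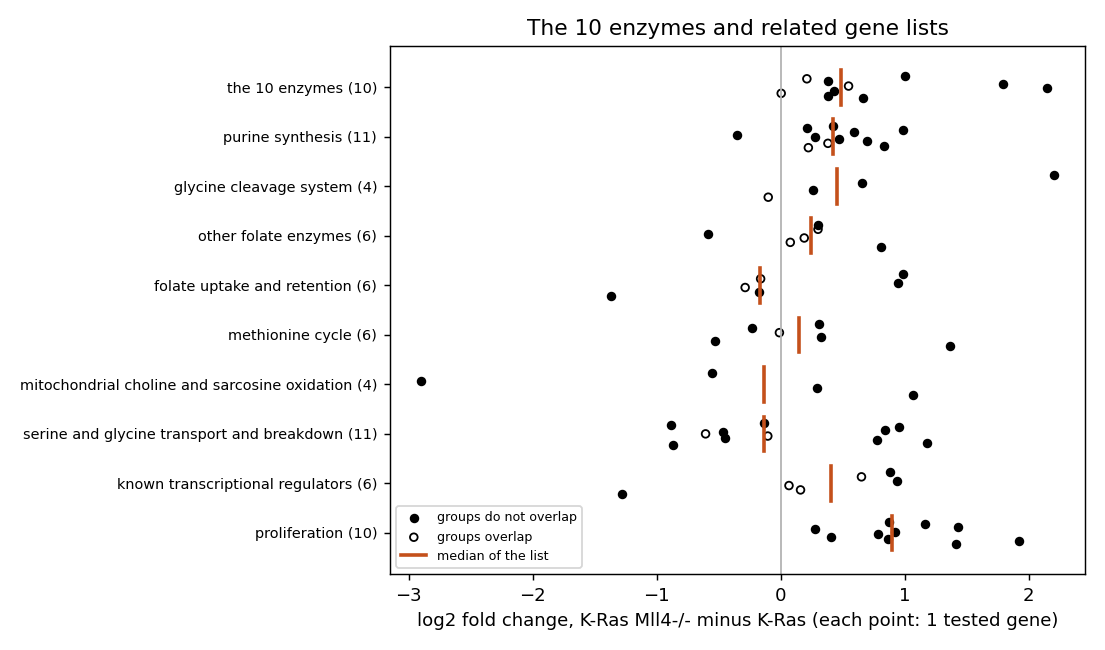
Log2 fold change, K-Ras Mll4-/- minus K-Ras, of every tested gene of the 10 enzymes and of related lists, with the number tested in parentheses; filled points have groups that do not overlap and the orange bar is the list median. The medians are 0.49 for the 10 enzymes, 0.42 for purine synthesis and 0.90 for proliferation, and -0.17 for folate uptake and retention.

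ATF4, MYC and NRF2 are known regulators of serine and folate genes. Of the 6 regulator transcripts tested, 5 had positive log2 fold changes, as had 7811 of the 16001 genes tested. Only 2 of the 6 were higher in both K-Ras Mll4-/- samples, against 29.9% of all genes, and 1 was lower in both, against 28.5%. Ddit3 and Mycn had overlapping groups (log2 fold change 0.07 and 0.65, SE 0.20 and 0.60). Atf4 was at 186 and 176 CPM in K-Ras and 222 and 182 CPM in K-Ras Mll4-/- samples, with overlapping groups (log2 fold change 0.16, SE 0.16, edgeR quasi-likelihood adjusted p = 0.583). ATF4 is controlled mainly in translation, which these counts do not measure. Myc was at 33.4 and 34.4 CPM in K-Ras and 63.8 and 66.1 CPM in K-Ras Mll4-/- samples, with both replicates close together (log2 fold change 0.94, SE 0.12, edgeR quasi-likelihood adjusted p = 0.128). Nfe2l2, the gene of NRF2, was at 179 and 231 against 315 and 439 CPM (log2 fold change 0.88, SE 0.24, edgeR quasi-likelihood adjusted p = 0.178). DESeq2 called Myc and Nfe2l2 higher. Atf3, a stress-induced factor, was the exception, at 68.3 and 141 against 48.7 and 37.8 CPM (log2 fold change -1.28, SE 0.39, edgeR quasi-likelihood adjusted p = 0.191), and DESeq2 called it lower.

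Proliferation genes differed between the same groups. All 10 of the list were higher in both K-Ras Mll4-/- samples, as were 29.9% of all genes, with a median log2 fold change of 0.90. Among them, Mki67 was at 92.8 and 82.8 against 160 and 173 CPM and Cdk1 at 3.53 and 5.26 against 16.5 and 16.8 CPM. Of the epithelial markers, 4 of 5 were higher in both samples, with a median of 1.11, while Nkx2-1 had overlapping groups (log2 fold change 0.06). Lists of single epithelial cell types did not follow. Alveolar type 2 had 3 of 6 positive log2 fold changes (median -0.12), alveolar type 1 had 2 of 5 (-0.14) and club had 0 of 5 (-1.07). Lower in both samples were 5 of 6 endothelial, 5 of 6 fibroblast and 5 of 5 ciliated markers, against 28.5% of all genes. Their medians were -0.79, -1.10 and -2.38. The club and ciliated medians include K-Ras replicate 2, which stood apart for both lists. Only 1 of 5 club markers was lower in both samples. K-Ras replicate 1 summed to 713 CPM of club markers, between the K-Ras Mll4-/- samples at 793 and 633 CPM. Its ciliated sum of 94.2 CPM was above their 51.4 and 56.8 CPM. Msln, a mesothelial marker also known from tumours, was at 13.8 and 17.0 CPM in K-Ras and 120.3 and 221 CPM in K-Ras Mll4-/- samples (log2 fold change 3.47, SE 0.36, edgeR quasi-likelihood adjusted p = 0.116), and DESeq2 called it. The rest of the mesothelial list did not rise with it. Upk3b had 9 and 23 reads in K-Ras and 8 and 1 reads in K-Ras Mll4-/- samples. Wt1 had 4 and 5 against 3 and 2 reads, and both genes were too low to be tested. Lrrn4 had overlapping groups (log2 fold change -0.40). The part that proliferation or epithelial, endothelial, fibroblast and ciliated content has in the differences of the 10 enzymes was not tested. Hepatocyte RNA, where Aldh1l1 and Shmt1 are abundant, was near absent: the 5 hepatocyte markers summed to 0.457 to 2.05 CPM, and Cps1 had 0 reads in all 4 samples, which allows up to 0.0830 to 0.114 CPM by counting error alone.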

How the data were processed

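RNA sequencing counts of 4 mouse lung tumour samples were used. The authors' deposited files hold raw read counts per gene symbol, 1 file per sample. Per the submitters' processing notes, CASAVA 1.4, STAR and HTSeq were used with the mm9 build. The annotation, strand setting and read length are not given in the sources used here. Per the layout of the deposited files, 5 closing lines tally reads outside genes, and reads with more than 1 alignment (31.5% to 36.6% of all) were set apart. These lines were left out of library sizes.

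Counts were fitted over all genes with edgeR 4.0.16 in R 4.3.3 (filterByExpr, TMM scaling, robust quasi-likelihood test, Benjamini-Hochberg adjustment over 16001 genes), and a gene was called at an adjusted p under 0.05. The standard error is the log2 fold change divided by the square root of F. The labels name no batch. DESeq2 1.42.0, limma-voom (limma 3.58.1), other scalings and filters, offsets for GC content and length (mgcv 1.9.3), the replicate number as a block and leaving out each sample were alternatives. The fit was tested on simulated data with changes close in size to that of Mthfd2. It called most changed genes when all genes shared 1 spread and none when the spread varied between genes. The varying spread was drawn at random around a common value and not fitted to each gene. The simulation therefore cannot say what share of real differences of that size was missed. Gene lengths came from GENCODE M21 (GRCm38), matched by symbol or RefSeq synonym, for 24017 of 24391 genes, and promoters from RefSeq GRCm38.p6, and neither build is that of the counts. No protein sequences were used here.

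The 10 enzymes and the lists were chosen with earlier results of these data known. Named were the 10 enzymes, Kmt2d, Ptprc, the 2 genes with the smallest p of each pathway, regulator and proliferation list, Tyms, Gldc, Mtr, Mthfd2l and defining markers at 0, and some genes that this rule names are not reported here. Atf4, Atf3, Ddit3, Mycn, Amt, Dld, Msln, Upk3b, Wt1, Lrrn4, Alas2 and Hba-a2 were named after their values were seen. So were Slc6a9, Slc1a5, Sfxn1 and Sfxn2 in the closing section. Depth is counted in reads without stated molecular identifiers, so the floor of 3 reads (0.0830 to 0.114 CPM) covers counting error only.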

Additional observations from a re-analysis of the deposited data

How the results depend on the processing

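Against 6 genes called over all genes and 0 of the 10 enzymes, the quasi-likelihood test without a count filter called 44 genes and 1 enzyme (Mthfd2), the likelihood ratio test 1503 genes and 3 enzymes, and DESeq2 1601 genes and 3 enzymes, in both cases Psat1, Shmt2 and Mthfd2. limma-voom called 0 genes, with 3228 at an unadjusted p under 0.05. Leaving out single samples gave 0 to 528 genes and 0 to 1 enzymes, the 528 genes and Mthfd2 without K-Ras replicate 1, and 0 genes without any of the other 3 samples. The median log2 fold change of the 10 ranged from 0.32 (without K-Ras Mll4-/- replicate 1) to 0.70 (without K-Ras Mll4-/- replicate 2).

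The labels do not say what samples with the same replicate number share, and over all tested genes the departures of such samples from their group means had a correlation of 0.21. A replicate block in the fit gave 217 genes and 2 enzymes (Psat1 and Mthfd2) called, and with the block and GC and length offsets, 377 genes and 3 enzymes.

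The log2 fold change of Mthfd1 changed sign with total-count (-0.046), upper-quartile (-0.053) and relative log expression scaling (-0.0057), with the stricter count filter (-0.019), with DESeq2 (-0.0058), and without K-Ras replicate 1 (-0.037) or K-Ras Mll4-/- replicate 1 (-0.092), and leaving out single samples moved it from -0.092 to 0.093. That of Shmt1 changed sign without K-Ras replicate 1, and leaving out single samples moved it from -0.19 to 0.76. The cause was not tested. The other 8 enzymes kept their sign in all 16 alternatives. Over these, the adjusted p of Mthfd2 ran from 2.15e-14 to 0.600, of Psat1 from 8.59e-08 to 0.645 and of Shmt2 from 0.000565 to 0.772.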

Other observations

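Of 11 tested genes of serine and glycine transport and breakdown, 4 had both K-Ras Mll4-/- samples above the K-Ras samples and 5 had both below, against 29.9% and 28.5% of all genes. The neutral amino acid transporters Slc38a1 (32.8 and 31.1 CPM in K-Ras, 58.8 and 55.7 CPM in K-Ras Mll4-/- samples) and Slc38a2 (204 and 270.2 against 451 and 470 CPM) were higher, and DESeq2 called both, while the edgeR quasi-likelihood adjusted p was 0.135 and 0.153. The glycine transporter Slc6a9 was lower, at 44.9 and 60.7 against 30.3 and 27.1 CPM (log2 fold change -0.88, SE 0.19, edgeR quasi-likelihood adjusted p = 0.157), and DESeq2 called it. Slc1a5, which exchanges neutral amino acids including serine and glutamine, was at 91.2 and 106 against 71.3 and 71.6 CPM (log2 fold change -0.47). Sfxn1, the carrier that brings serine into mitochondria, was at 23.9 and 27.3 against 39.4 and 48.5 CPM. Its relative Sfxn2 was at 16.8 and 16.3 against 12.3 and 12.04 CPM. The log2 fold changes of Sfxn1 and Sfxn2 were 0.78 and -0.45 (edgeR quasi-likelihood adjusted p = 0.156 and 0.220). DESeq2 called Sfxn1 (adjusted p = 0.0276) but not Sfxn2 or Slc1a5.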
